A study of Mus musculus with 4 samples.

Results

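Carbonic anhydrases turn carbon dioxide and water into bicarbonate and a proton, and back. In the colon they feed the exchangers through which absorptive cells take up sodium and chloride, and *Car1*, *Car2* and *Car4* are known from the differentiated cells near the mouth of the crypt. The enzymes differ in where they work, in the cytosol or on the outer face of the cell membrane, and one relative, *Car8*, has lost the catalytic activity. Described here are 8 mouse genes of this family, *Car1*, *Car2*, *Car3*, *Car4*, *Car7*, *Car8*, *Car12* and *Car13*, chosen by name in the array files, out of 27076 gene names on the array. They are represented by 11 of its 41174 gene probes. *Car3*, *Car8* and *Car12* have 2 probes each, and the brighter one stands for the gene. The rule used names and no measured value.

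Expression was measured on 4 dual-color arrays, 2 in each of 2 experiments, all with RNA from C57BL/6 mice, which the study's methods describe as male and 6 to 8 weeks old. In the first experiment, colon RNA of *Myh11CreErt2*/*Rspo3* fl/fl mice (*Rspo3* KO), in which the Cre is active in the Myh11+ myofibroblast and smooth muscle lineage, was hybridised against colon RNA of *Myh11CreErt2*/*Rspo3*+/+ littermates 2 weeks after depletion of *Rspo3*, which tamoxifen induces. All of these mice carry the Cre. Each channel held 1 mouse, and array 2 carried the dyes the other way round, so that n = 2 pairs of mice, and dye and pair cannot be told apart. In the second, live epithelial cells of *Axin2CreErt2*/*Rosa26-tdTomato* mice were sorted into tdTomato-positive (Axin2+) and tdTomato-negative (Axin2-) cells 24 h after tamoxifen and pooled from 3 mice. The same pools were hybridised on both arrays with the dyes exchanged, which is 1 replicate, so that no test and no p-value is possible there. The labels name distal colon for the first experiment, whereas the methods name colon or colon epithelium.

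On the 4 arrays, between 53.1% and 60.3% of the gene spots in a channel were well above background. All 7 epithelial marker genes examined were well above background in every channel. The 2 probes of *Rspo3* did not show its loss, since 1 was too dim in all channels and the other was well above background on array 2 alone, at a log2 ratio of 0.17. Where these probes lie relative to the deletion was not known, and KO below means the channel labelled *Rspo3* KO. The log2 ratios of the 2 pairs of mice correlated with a Pearson's r of 0.028 across 15293 genes, which are not independent replicates, and those of the 2 Axin2 arrays with 0.92 across 15766 genes.

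The values rest on 60-base probes, 3 of which are shown 5′ to 3′ in lower case. They are those of *Car4*, the member with the largest difference in sorted cells, of *Car7*, whose 2 sorted-cell ratios lay closest together, and the dimmer probe of *Car12*, which the array files place over 9455 bases of the genome, so that its bases are not contiguous there. All 3 lie on the plus strand of mm9 in the files.
*Car4*, chr11:84778310-84778369: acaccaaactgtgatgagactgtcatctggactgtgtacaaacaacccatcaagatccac
*Car7*, chr8:107072897-107072956: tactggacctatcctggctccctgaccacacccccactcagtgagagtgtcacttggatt
*Car12*, chr9:66601610-66611064: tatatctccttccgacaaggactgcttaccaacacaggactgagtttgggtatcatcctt
The probes of *Car13*, *Car1*, *Car3* and *Car2* lie on chromosome 3 of mm9 within 238679 bases, from 14661587 to 14900265. Those of *Car8* lie on chromosome 4.

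The first question was how the family differed between Axin2+ cells, the cells of the lower crypt in which a Wnt target gene is active, and the other epithelial cells. *Car4* and *Car1* were much lower in Axin2+ cells, and *Car8* was higher by just under 1.5-fold. *Car2*, *Car7*, *Car12* and *Car13* stayed within 1.5-fold, and *Car3* was close to background, clearing it in Axin2- cells alone. By the rule used here, a mean ratio past 1.5-fold (0.58 on the log2 scale) with the same direction on both arrays, 2 of 8 members were lower and 0 were higher. Of all 15766 genes measured, 6.97% were lower and 7.84% higher by the same rule. The median of the 8 mean log2 ratios was -0.26, beside -0.0062 over all genes.

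**Figure D1:**
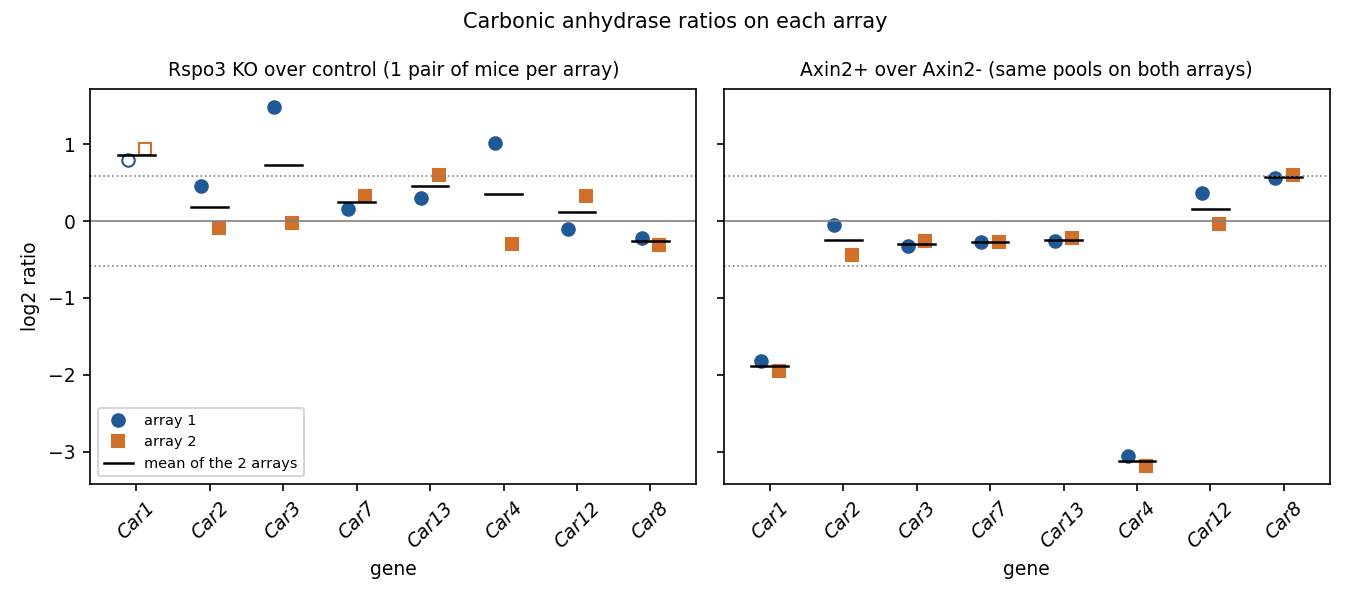
Log2 ratios of the 8 genes on each array, for Rspo3 KO over control (left) and Axin2+ over Axin2- cells (right); points are arrays, bars the mean of the 2 arrays and dotted lines 1.5-fold, and open points of Car1 are spots with an outlier mark. Car4 at -3.06 and -3.18 and Car1 at -1.82 and -1.95 lie far below the other genes in Axin2+ cells, whereas in Rspo3 KO colon the points of Car3 and Car4 lie far apart.

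*Car4* encodes an enzyme tethered by a lipid anchor to the outer face of the membrane, where it is known from the brush border. Its log2 level was 8.27 in Axin2+ and 11.33 in Axin2- cells on array 1, and 8.31 and 11.496 on array 2. Both Axin2+ channels were thus about 3 log2 units below both Axin2- channels. The log2 ratio was -3.06 on array 1 and -3.18 on array 2, with a mean of -3.12 ± 0.086 (SD of 2 arrays of the same pools), or 8.71-fold lower. It ranked 4 among 15766 genes ordered from the lowest mean ratio.

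*Car1*, a cytosolic enzyme of colonocytes and red blood cells, had log2 levels of 13.76 in Axin2+ and 15.58 in Axin2- cells on array 1. On array 2 its levels were 13.54 and 15.48. Its ratios of -1.82 and -1.95 gave a mean of -1.89 ± 0.087, or 3.70-fold lower, and rank 96. Of the 5 erythroid markers measured, 1 was lower by the 1.5-fold rule, and the median of the 5 was 0.0032. *Hba-a1* (alpha globin) had log2 ratios of -1.29 and -1.41 and *Alas2*, an enzyme of heme synthesis in red cells, -0.42 and -0.45, whereas *Ahsp*, a chaperone of alpha globin, had 0.12 and 0.13 and *Tspo2* 0.21 and 0.0094. Over the 6 erythroid markers with a probe, of 8 listed, the summed linear level was 1044 and 951 in the Axin2+ channels and 1717 and 1614 in the Axin2- channels, and 4 or 5 of the 6 cleared the background in each channel. The part of these cells in the *Car1* difference was not tested.

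Of the other cytosolic enzymes, *Car2*, a fast enzyme found in many tissues, had log2 ratios of -0.057 and -0.44 with a mean of -0.25 ± 0.27, so that its 2 arrays differed by 0.38, beside a median difference of 0.12 between the arrays over all genes. *Car13* had ratios of -0.26 and -0.22, a mean of -0.24 ± 0.026. *Car7*, best known from neurons, had -0.267 and -0.273, a mean of -0.27 ± 0.0040. The spread of these values is that of 1 pair of pools measured on both arrays and says nothing of the spread between mice. *Car3*, a slow enzyme abundant in muscle and fat, was well above background in Axin2- cells alone, at signals of 44.7 (Cy3, array 1) and 126 (Cy5, array 2) over backgrounds of 22 and 74. Its log2 ratios of -0.32 and -0.26 came to 1.2-fold lower in Axin2+ cells. The signal in the Axin2+ channels was not well above background, so that this value sets no bound on the difference. The second *Car3* probe did not clear the background in these 4 channels.

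*Car12*, a transmembrane enzyme with its active site outside the cell, had log2 ratios of 0.37 and -0.045, which pointed opposite ways, with a mean of 0.16 ± 0.29. Its log2 level was between 8.61 and 9.0 in all 4 channels, so that the groups overlapped. The dimmer probe gave 0.017 and 0.19.

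*Car8* encodes a relative without carbonic anhydrase activity, known to bind the inositol trisphosphate receptor in neurons. It was the member with the highest ratio in Axin2+ cells. Its log2 level was 9.96 in Axin2+ and 9.41 in Axin2- cells on array 1, and 9.89 and 9.29 on array 2, with both Axin2+ channels above both Axin2- channels. The ratios of 0.55 and 0.60 gave a mean of 0.58 ± 0.033, or 1.49-fold, which is just inside the 1.5-fold limit. The second probe had ratios of 0.46 and 0.48. With the extraction software's own log ratios, the mean was 0.64.

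**Figure D2:**
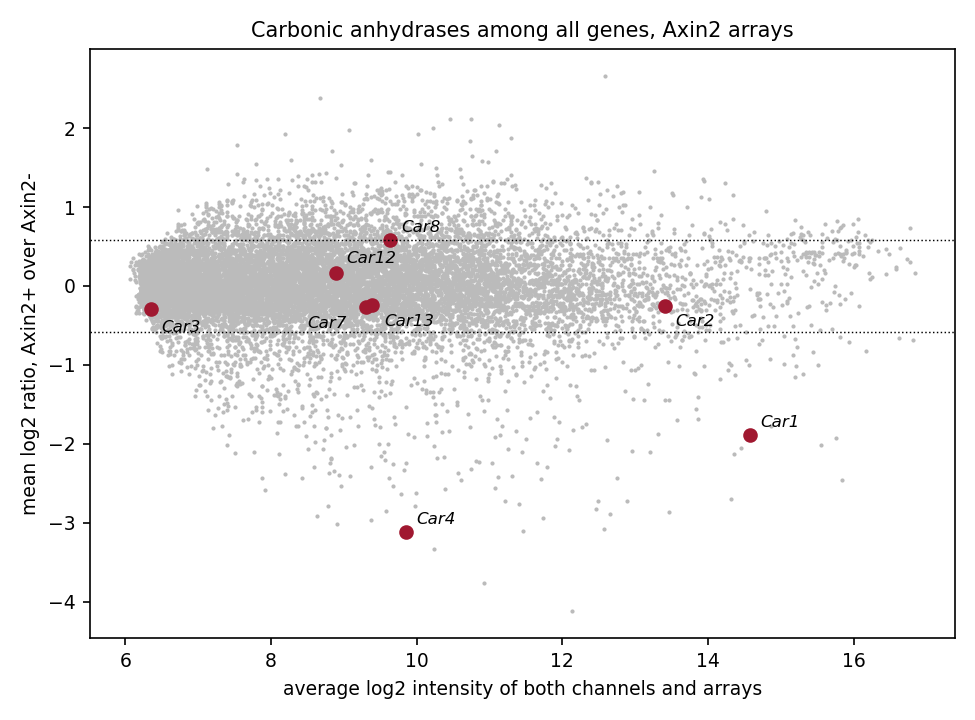
Mean log2 ratio of Axin2+ over Axin2- cells (y axis) against the average log2 intensity (x axis) for all 15766 genes measured (grey) and the 8 carbonic anhydrases (red); dotted lines mark 1.5-fold. Car4 and Car1 lie among the lowest points at their intensities, Car8 lies on the upper line, and the other 5 lie between the lines.

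Genes of the compartments at both ends of the crypt are given beside these values, from lists that hold no carbonic anhydrase. Of 12 markers of surface colonocytes, the mature cells at the crypt mouth, all were measured on the Axin2 arrays and 10 were lower in Axin2+ cells by the 1.5-fold rule, with a median of -2.43. *Slc26a3*, the apical exchanger that trades chloride for bicarbonate, had ratios of -2.75 and -2.50. The summed linear level of these markers was 102400 and 103400 in the Axin2+ channels and 249600 and 229500 in the Axin2- channels. Of 12 crypt base stem cell markers 11 were measured and 8 were higher in Axin2+ cells, with a median of 1.07. This list holds *Axin2* itself, the gene by which the cells were sorted, so that its direction was set by the design. *Krt20*, on the surface colonocyte list, was picked by the paper as a marker of Axin2- cells from its own arrays of these cells, so that it is no independent marker here. Markers of other differentiated epithelial cells were lower in Axin2+ cells as well, in 8 of 9 enteroendocrine markers (median -2.11), 7 of 10 goblet cell markers (median -1.26) and 5 of 7 tuft cell markers (median -1.20). Of the epithelial markers 2 of 7 were lower. In such pools, fewer cells of a type and less RNA per cell cannot be told apart, and the part of cell composition in the *Car1* and *Car4* ratios was not tested.

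Among markers of cells outside the epithelium, 1 of 4 adipocyte, 1 of 4 smooth muscle and 1 of 3 enteric neuron and glia markers were lower and 1 of 5 skeletal muscle markers was higher, and 0 were past 1.5-fold of 2 fibroblast, 2 endothelial, 5 B cell, 4 T cell, 4 macrophage and 4 sex-specific markers.

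Of 31 genes for chloride, bicarbonate, sodium and proton transport, 29 were measured in the sorted cells, and 15 were lower and 2 higher in Axin2+ cells. Their median log2 ratio was -0.60. The sodium/proton exchanger *Slc9a3* had ratios of -2.37 and -2.38, and *Slc9a2*, an exchanger of the same family, -1.69 and -1.65. Both genes that were higher belong to chloride secretion. They were *Cftr*, the apical chloride channel, at 1.02 and 1.07, and *Slc12a2*, the cotransporter that loads the cell with chloride, at 1.34 and 1.03. Of 8 other carbonic anhydrases 5 were measured, *Car5a*, *Car9*, *Car11*, *Car14* and *Car15*. None of them was past 1.5-fold, and their mean ratios lay between -0.27 for the transmembrane enzyme *Car14* and 0.12 for *Car11*, a relative without activity.

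**Figure D3:**
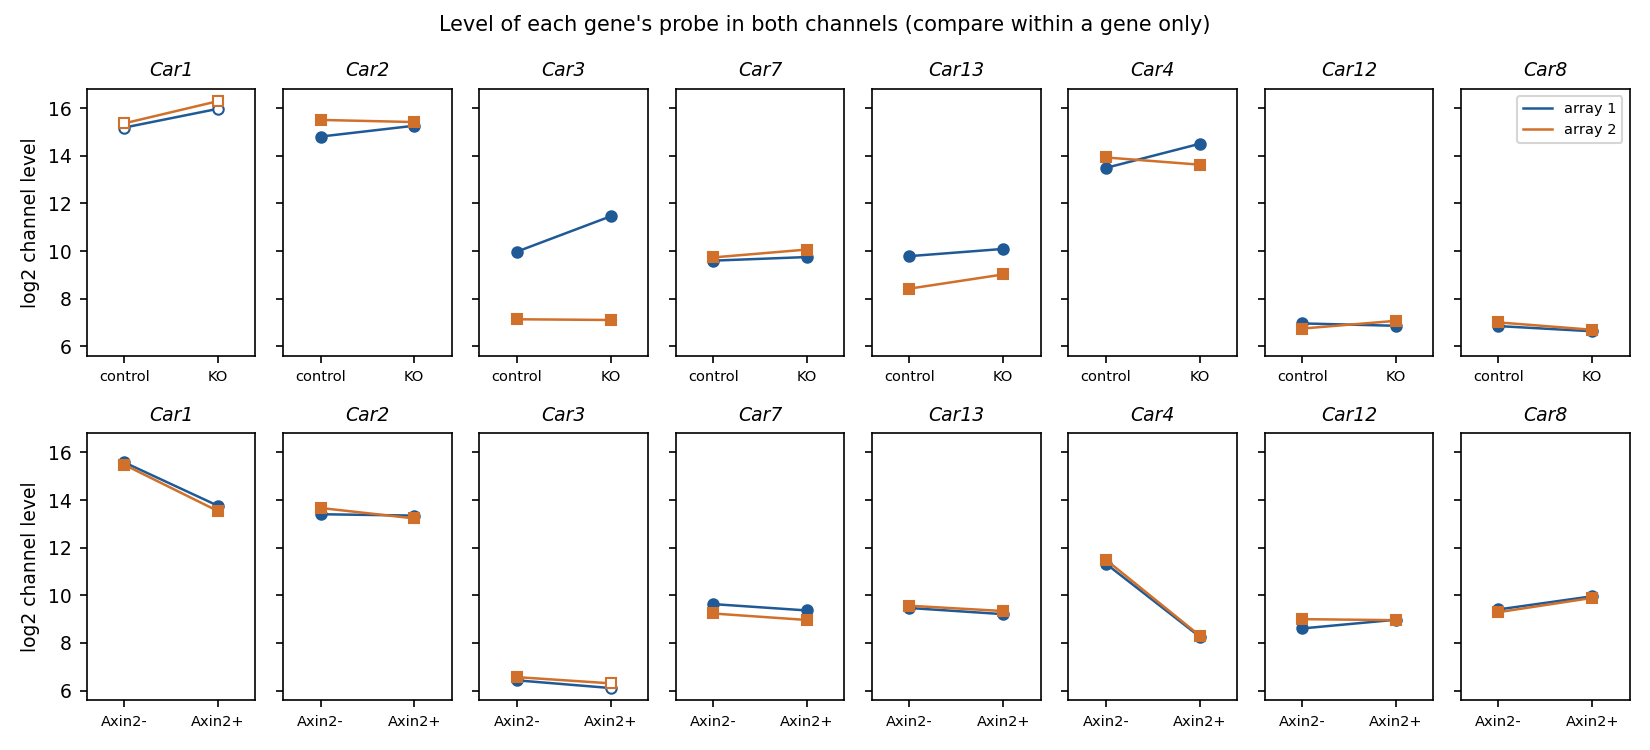
Log2 level of the probe of each gene in the reference channel (control or Axin2-) and the other channel (Rspo3 KO or Axin2+), joined for each array, with the Rspo3 KO experiment on top; open points were not well above background or carry an outlier mark. The lines of Car1 and Car4 fall steeply from Axin2- to Axin2+ cells on both arrays, whereas in Rspo3 KO colon the 2 lines of Car4 cross and those of Car3 lie far apart; an open point of Car8 in the KO channel of array 1 is partly covered by that of array 2.

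The second question was whether the family differed in the colon after depletion of *Rspo3*, the stromal Wnt amplifier. No member passed the test in 2 pairs of mice. By limma with Benjamini-Hochberg adjustment, 0 of the 7 members measured had an adjusted p at or under 0.05, 0 had an unadjusted p under 0.05, and 0 were past 1.5-fold in the same direction in both pairs. Of all 15293 genes tested, 0.222% were called by limma and 4.30% by the 1.5-fold rule, and 697 had an unadjusted p under 0.05 by limma. In 4 of the 7 members the pairs pointed opposite ways, as they did for 8547 of all genes. The median of the 7 mean log2 ratios was 0.24, beside -0.011 over all genes, with 0.30 on array 1 and -0.030 on array 2.

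The eighth member, *Car1*, has a single probe, whose spot carries a mark for uneven signal on both arrays, in the KO channel on array 1 and in both channels on array 2, and it was left out by the rule on outlier spots. Such marks were common among bright probes. Of the 229 probes marked on both arrays, 116 were among the 200 brightest, and *Krt20*, *Aqp8* and *Guca2a* of the surface colonocyte list were lost in the same way. With marked spots kept, a choice made after seeing the data, the log2 level of *Car1* was 15.97 in KO and 15.18 in control colon on array 1, and 16.29 and 15.36 on array 2. Both KO mice were above both controls, and how many of all genes separated the mice in this way was not counted. The log2 ratios were 0.79 and 0.93, with a mean of 0.86 ± 0.10 (SD, n = 2) and an SE of 0.23, past the 1.5-fold rule, but limma's adjusted p was 0.51.

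Among markers of red blood cells, *Hba-a1* had log2 ratios of KO over control of 1.61 and 1.32, and *Alas2* 1.2 and 0.83, whereas *Tspo2* had -0.12 and -0.25. Of the 8 erythroid markers listed 3 were measured, 2 of them higher by the 1.5-fold rule. The summed linear level over the 6 with a probe was 17580 and 5067 in the KO channels against 6162 and 2334 in the control channels. *Slc4a1*, the anion exchanger of red cells, cleared the background in the KO channel of array 1 alone. The part of red blood cells in the *Car1* values was not tested.

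*Car2*, which red blood cells also hold, had log2 levels of 15.26 in KO and 14.81 in control colon in pair 1, and 15.42 and 15.51 in pair 2. The levels overlapped between the groups. Its log2 ratios of 0.45 and -0.088 gave a mean of 0.18 ± 0.38 and an adjusted p of 1.0 by limma, the value that all 7 members had after rounding. *Car13* was higher in both pairs. Its log2 level was 10.09 in KO and 9.79 in control colon in pair 1, and 9.02 and 8.42 in pair 2, so that the lower KO mouse lay below the higher control. The ratios of 0.30 and 0.60 gave a mean of 0.45 ± 0.21, or 1.37-fold, with an SE of 0.23 and an unadjusted p of 0.092 by limma. *Car7* had ratios of 0.15 and 0.33, a mean of 0.24 ± 0.13.

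*Car3* and *Car4* were the least alike between the pairs. *Car4* had log2 levels of 14.50 in KO and 13.49 in control colon in pair 1, and 13.63 and 13.93 in pair 2. The KO mouse was the higher one in pair 1 and the lower one in pair 2. The log2 ratios of 1.01 and -0.30 differed by 1.32, and the mean was 0.35 ± 0.93. Over all genes, the median difference between the 2 arrays was 0.35 and the 90th percentile 0.97. On the Axin2 arrays, where the dyes were reversed over the same RNA, the ratios of the same probe differed by 0.12. Surface colonocyte genes had ratios with a median of 0.36 in pair 1 and -0.32 in pair 2 over the 9 measured. Among them, *Slc26a3* had 0.65 and -1.23, and *Cyp2c55*, which encodes a cytochrome P450 enzyme, 0.36 and -0.93. The summed linear level of all 12 surface colonocyte markers, marked spots included, was higher in KO colon in both pairs, at 379600 in KO and 304700 in control colon in pair 1, and 363600 and 289900 in pair 2. Their part in the *Car4* values was not tested.

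*Car3* had a log2 level of 11.46 in KO and 9.97 in control colon in pair 1, and 7.11 and 7.14 in pair 2. Both mice of pair 1 were far above both mice of pair 2, and KO and control differed within pair 1 alone. The ratios were 1.48 and -0.030, with a mean of 0.73 ± 1.07 and an unadjusted p of 0.078 by limma. The second probe had ratios of 0.93 and 0.045. *Car6*, which encodes the secreted enzyme of saliva and is not one of the 8, had a similar pair of ratios, 0.91 and -0.11.

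**Figure D4:**
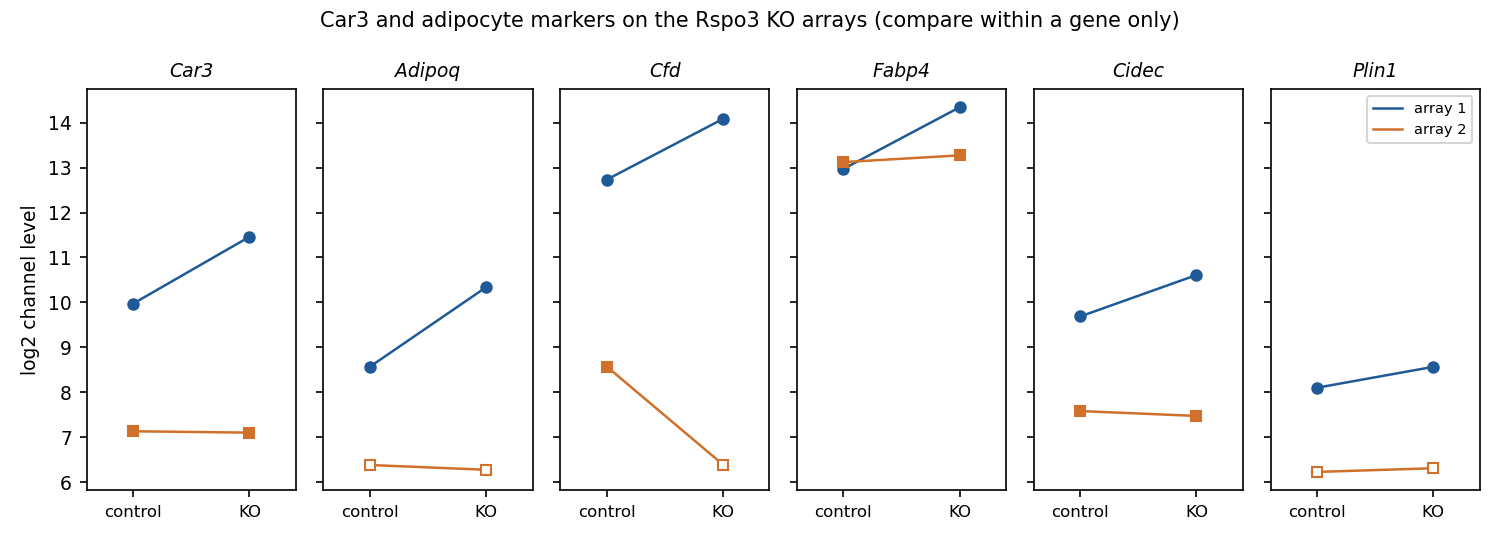
Log2 level of Car3 and of 5 of the 10 adipocyte markers, chosen after their values were seen, in the control and the KO channel of the Rspo3 KO arrays, joined for each array; open points were not well above background. On array 1, Car3, Adipoq, Cfd, Fabp4, Cidec and Plin1 were all higher in the KO than in the control channel, and all but Fabp4 had array 2 levels below both array 1 levels.

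Part of the adipocyte markers differed between the mice as *Car3* did. *Adipoq*, which encodes adiponectin, had log2 levels of 10.34 in KO and 8.57 in control colon in pair 1, and was not well above background in either mouse of pair 2. *Cfd*, which encodes adipsin, had 14.08 and 12.73 in pair 1, and 6.40 and 8.58 in pair 2, where the KO channel was not well above background. The summed linear level of the 10 adipocyte markers was 45360 in KO and 20500 in control colon in pair 1, and 13960 and 12390 in pair 2. In pair 1, 9 of the 10 were well above background in each channel, and in pair 2, 5 were in the KO and 6 in the control channel. Other markers of the list did not follow *Car3*. *Plin4*, which encodes a lipid droplet protein, had ratios of -0.24 and 0.52, with levels of 11.44 and 11.68 in pair 1 and 11.49 and 10.97 in pair 2. The lipase gene *Lipe* had ratios of -0.39 and -0.068, and *Cd36*, a fatty acid transporter, had 0.65 and 0.21. Of the 6 markers of the list measured on both arrays, 2 were higher in both pairs, 1 was lower in both and 3 went opposite ways. *Lep*, which encodes leptin, did not clear the background in these 4 channels. Of 10 skeletal muscle markers 8 were measured, 2 of them lower in KO colon and 0 higher by the 1.5-fold rule. The part of fat or muscle in the *Car3* values was not tested.

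*Car12* had log2 ratios of -0.10 and 0.33 in the 2 pairs, with levels between 6.75 and 7.07, and its second probe was not well above background. *Car8* was the single member that was lower in both pairs. Its log2 level was 6.63 in KO and 6.85 in control colon in pair 1, and 6.70 and 7.01 in pair 2, so that both KO mice were below both controls. How many of all genes separated the mice in this way was not counted. The signal lay close to the background, at 138 over 80 in the KO channel of pair 1, which was not well above background, and at 202 over 84 in the control channel of pair 2. The ratios of -0.22 and -0.31 gave a mean of -0.26 ± 0.064 with an SE of 0.23, and the second probe had -0.32 and -0.33. With the log ratios of the extraction software the mean was -1.06, past the 1.5-fold rule, with an adjusted p of 0.34 by limma. Those ratios differ from the ones used here in both background correction and normalisation. With the background correction alone changed, the mean was -0.30 without correction, -0.40 with an offset of 16 and -0.16 with the background fitted to all spots. With the normalisation alone changed to median centring, the mean was -0.30. Which step made the software's value larger was not tested.

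In the same colon samples, 25 of the 31 transport genes were measured, and 3 were higher and 3 lower by the 1.5-fold rule, with 0 called by limma and 6 at an unadjusted p under 0.05. Of all 15293 genes, 697 were under 0.05 by limma's unadjusted p. *Slc9a3* had log2 ratios of 1.35 and 1.83, the water channel *Aqp4* 1.80 and 0.99, and *Slc5a8*, a transporter of short-chain fatty acids, 1.85 and 0.74. The 3 lower genes were the bicarbonate-permeable channel *Best2* (-1.19 and -0.86), the proton pump *Atp12a* (-0.89 and -0.45) and *Guca2b*, which encodes uroguanylin (-0.97 and -0.47). The median over the list was 0.062. Of the crypt base stem cell markers, 6 of 11 were lower and 0 higher by the same rule. Among the remaining marker lists, 4 of 5 B cell, 1 of 4 T cell and 2 of 9 enteroendocrine markers were lower and 1 of 8 macrophage markers was higher, and 0 were past 1.5-fold of 4 epithelial, 6 goblet cell, 3 tuft cell, 7 smooth muscle, 8 fibroblast, 8 endothelial, 8 enteric neuron and glia and 4 sex-specific markers. None of the 5 other carbonic anhydrases measured was past 1.5-fold. They were *Car5b*, *Car6*, *Car9*, *Car11* and *Car14*, and *Car14*, at -0.51 and -0.24, was the single one lower in both pairs.

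**Figure D5:**
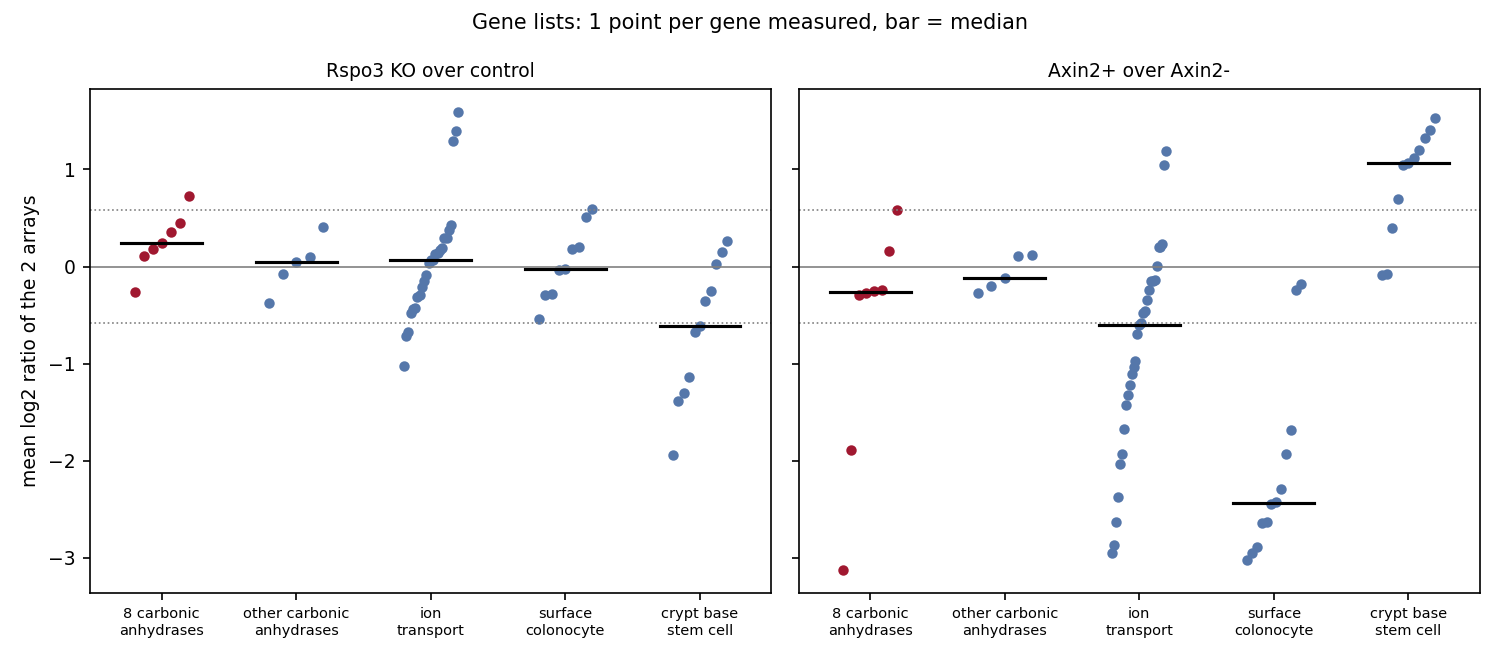
Mean log2 ratio of every gene measured in each list, for Rspo3 KO over control (left) and Axin2+ over Axin2- cells (right), with the median as a bar and dotted lines at 1.5-fold. In Axin2+ cells, 15 of 29 transport genes and 10 of 12 surface colonocyte genes lie below the lower line, as do 2 of the 8 carbonic anhydrases.

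Across both experiments, which share no samples, *Car8* was the member that was lower in both KO mice and higher in Axin2+ cells. *Car7* and *Car13* were higher in both KO mice and lower on both Axin2 arrays, as was *Car1* with its marked spots kept. Like directions were common over all genes. In the KO pairs, 3101 of 15293 genes were higher in both and 3645 lower in both. On the Axin2 arrays, 6447 of 15766 genes were higher on both and 6591 lower on both. The number of all genes that went opposite ways between the experiments was not counted. The difference between the experiments was not tested. Over the 4 log2 ratios, and among the 12176 genes measured in both experiments and named through RefSeq, likeness was measured as Euclidean distance. The genes closest to *Car4* were *Tmem140* at 0.55, *Ces2b*, which encodes a carboxylesterase, at 0.62, and *Tmigd1* at 0.68. *Tmigd1*, which is on the surface colonocyte list, had ratios of 0.76 and 0.26 in the KO pairs and -3.12 and -2.93 on the Axin2 arrays. *Car3* lay closest to *Ell2*, at 0.31. The nearest genes of *Car8* were *Eif3a*, *Dock9* and *Exosc8*, at 0.10 to 0.11, those of *Car7* were *Tgfb1*, *Esyt2* and *Scp2*, at 0.052 to 0.075, and those of *Car13* were *Ccl4*, *Klhl26* and *Cdr2*, at 0.070 to 0.13.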

How the data were processed

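Colon RNA of *Rspo3* KO against control mice (2 pairs, 2 arrays) and RNA of sorted Axin2+ against Axin2- cells (1 pair of pools, 2 arrays) was measured on dual-color Agilent arrays, and samples were grouped by their labels. Per spot, the authors deposited linear intensities of both dyes (mean signal and median background), the log10 ratio of Cy5 over Cy3 from the feature extraction software, and an error score of that ratio. The series' table of values, which the authors deposited as log10 ratios, holds the same ratios. Of the deposited flags, those for outliers, saturation and signal above background were used. The software's p-values were not used.

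From the intensities, background was corrected with limma (version 3.58.1, R version 4.3.3; normexp, offset 50), leaving spots with a background outlier (66 and 6 on the *Rspo3* KO arrays) out of that fit. Ratios on the log2 scale were then adjusted array by array with loess, and outlier spots were left out (467 and 439 gene spots on the *Rspo3* KO arrays, 131 and 124 on the Axin2 arrays). Ratios were turned to *Rspo3* KO over control and Axin2+ over Axin2-. Spots of a probe were averaged, the brightest probe stood for a gene, and on both arrays it had to clear the background flag in 1 channel or more. Channel levels were taken after loess and quantile scaling of average intensities within each experiment, and levels of different probes were not compared. The *Rspo3* KO ratios were tested against 0 with limma (lmFit, eBayes, 6.56 prior degrees of freedom), adjusted over all 15293 genes with a threshold of 0.05. The scripts were tested on simulated data. Of 41174 probes, 28902 were named by accession, 5164 by symbol and 327 by synonym through RefSeq (GRCm38.p6), and 6781 kept the file's name. Probe positions are those of mm9 in the array files. One *Car3* probe carries that name in the *Rspo3* KO files alone.

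The members, gene lists and tests were chosen with earlier results of these data known. Every member is described, the 3 nearest genes of a member were taken by distance, and genes of the lists were named as examples after their values were seen. Gene lists were the other carbonic anhydrases, the transport genes, and markers of epithelium, surface colonocytes, crypt base stem cells, goblet, enteroendocrine, tuft and erythroid cells, adipocytes, skeletal and smooth muscle, fibroblasts, endothelium, enteric neurons and glia, B cells, T cells, macrophages and sex. Alternatives were log ratios as the software gave them, values of the series' table, no background correction, an offset of 16, a background fit to all spots, median centring, a dim-probe filter on both channels or none, probe means, a 2-fold threshold, error weights, a fit over 4 arrays, each array left out and, added later, outlier spots kept. Precision is limited by the number of arrays. Each experiment has a slide of its own, so that slide and experiment cannot be told apart.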

Additional observations from a re-analysis of the deposited data

How the results depend on the processing

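No carbonic anhydrase passed limma's test in *Rspo3* KO colon under any alternative run, and the lowest adjusted p of a member was 0.34. The number of members past 1.5-fold alike in both pairs, 0 as reported, was 2 with the software's log ratios and 2 with the series' table (*Car3* and *Car8*), 1 without background correction and 1 with the mean over probes (*Car3*), and 1 with outlier spots kept (*Car1*). The share of all genes past 1.5-fold, 4.30% as reported, was 9.52% with the software's ratios and with the series' table. It was 4.81% without background correction, 3.95% with the mean over probes and 4.29% with outlier spots kept. With 1 pair left out, between 1 and 2 members were past 1.5-fold in the other. The share of all genes past 1.5-fold in a single pair was not counted, so these counts have no background to be read against. With 1 pair left out, *Car2* ranged from -0.088 to 0.45, *Car3* from -0.030 to 1.48, *Car4* from -0.30 to 1.01 and *Car12* from -0.10 to 0.33, the first 3 being negative without pair 1 and *Car12* without pair 2. *Car13*, *Car7* and *Car8* kept their direction under every alternative that measured them, and *Car8* ranged from -1.06 to -0.16. Over all genes, limma called 34 as reported and between 0 (no filter on dim probes, error weights) and 117 (offset of 16) under the alternatives, which included 113 with the software's ratios, 67 without background correction, 54 in the fit over 4 arrays, 7 with median centring, 3 with the mean over probes and 1 with the background fitted to all spots.

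In Axin2+ cells, *Car4* ranged from -3.48 to -3.06 and *Car1* from -2.28 to -1.82, and both stayed past 1.5-fold under every alternative. *Car2* ranged from -0.59 with median centring, where *Car1* and *Car4* alone met the rule for both arrays, to -0.057 on array 1 alone. The number of members past 1.5-fold, 2 as reported, was 4 with the software's log ratios and 4 with the series' table, which added *Car3* (-1.52) and *Car8* (0.64), and 3 with no background correction or an offset of 16, which added *Car8*. It was 2 on array 1 alone and 3, with *Car8*, on array 2 alone, and the share of all genes on a single array was not counted. Over all genes, the 2335 past 1.5-fold became 5131 (32.5%) with the software's ratios or the series' table and 1076 (6.82%) with median centring. They became 2668 (16.9%) without background correction and 3191 (20.2%) with an offset of 16. Each array's ratio already sets 1 mouse or pool against another, so that the test of the *Rspo3* KO ratios was within pairs. No further pairing was possible. Signal close to background limits *Car8* and *Car12* on the *Rspo3* KO arrays, and *Car3* in the sorted cells and in pair 2 of the mice.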
